A study of Mus musculus with 31 samples.

Results

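The response of the C57 mouse lung to endotoxin was measured on 6 expression arrays of whole lung from male C57 BL/6 mice that had breathed room air. In 3 of them, lipopolysaccharide (LPS, also called endotoxin, from the outer membrane of Gram-negative bacteria) in saline was put into the lung through the trachea, and in the other 3 saline alone. These arrays are 6 of the 31 of the series and were chosen by their titles, which name the C57 strain, 3 wk of room air and either LPS in saline or normal saline. The titles number them as biological replicates. The other groups of the series, which are AKR mice or smoke-exposed mice, were left out of the fit, and 3 arrays of C57 mice titled 6 wk of room air with no instillation served as a background check. All 9 mice are labelled as aged 6 wk, and the labels name no transgene in these groups. The titles and the description of the series give opposite exposure times (the description has 6 weeks for instilled mice and 3 weeks for the others), so the time in room air is uncertain. The dose of LPS, the time from instillation to dissection and whether an array holds 1 lung or a pool are not given in the sources used here.

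LPS is bound by LBP and CD14 and recognised by the receptor pair TLR4 and MD-2, which signals through MYD88 to NF-kB and through TICAM1 to interferon regulatory factors. In the lung, alveolar macrophages, epithelium and endothelium then release chemokines that draw neutrophils and monocytes from the blood, and interferons made in a following wave act through STAT factors. Acute-phase proteins, antiviral proteins, feedback inhibitors and changes of metabolism are known parts of this programme.

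Promoters of 5 genes are shown because they carry motifs known from early and from interferon-driven genes, and a window can hold motifs of both kinds. Cxcl2 encodes a neutrophil chemokine, Nfkbia the NF-kB inhibitor IkB-alpha, Cxcl10 a chemokine for activated T cells, Ifit1 an antiviral protein and Irf1 a transcription factor of the interferon gamma response. The windows run from 250 bases before to 50 bases after the gene's start (RefSeq, GRCm38.p6). Capitals mark NF-kB letters in Cxcl2, NF-kB and interferon-stimulated response element (ISRE) letters in Nfkbia and Cxcl10, ISRE letters in Ifit1 and STAT letters in Irf1.
Cxcl2 (chr5:90903649-90903948, plus strand): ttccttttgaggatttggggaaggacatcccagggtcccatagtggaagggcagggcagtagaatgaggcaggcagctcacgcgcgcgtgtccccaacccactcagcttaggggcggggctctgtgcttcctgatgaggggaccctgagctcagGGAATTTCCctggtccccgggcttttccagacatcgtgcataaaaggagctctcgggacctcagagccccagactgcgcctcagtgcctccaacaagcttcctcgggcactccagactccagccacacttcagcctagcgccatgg
Nfkbia (chr12:55492598-55492897, minus strand): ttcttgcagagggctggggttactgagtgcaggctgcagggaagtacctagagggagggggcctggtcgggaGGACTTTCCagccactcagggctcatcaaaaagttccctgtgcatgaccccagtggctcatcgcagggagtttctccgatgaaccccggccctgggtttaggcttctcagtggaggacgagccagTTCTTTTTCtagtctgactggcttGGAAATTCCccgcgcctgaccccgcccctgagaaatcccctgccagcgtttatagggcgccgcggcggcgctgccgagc
Cxcl10 (chr5:92348840-92349139, minus strand): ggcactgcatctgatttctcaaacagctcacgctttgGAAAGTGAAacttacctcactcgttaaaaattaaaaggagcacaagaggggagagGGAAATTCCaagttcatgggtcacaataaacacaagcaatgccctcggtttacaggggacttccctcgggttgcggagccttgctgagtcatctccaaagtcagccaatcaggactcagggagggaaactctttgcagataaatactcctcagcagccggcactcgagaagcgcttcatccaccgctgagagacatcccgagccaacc
Ifit1 (chr19:34640639-34640938, plus strand): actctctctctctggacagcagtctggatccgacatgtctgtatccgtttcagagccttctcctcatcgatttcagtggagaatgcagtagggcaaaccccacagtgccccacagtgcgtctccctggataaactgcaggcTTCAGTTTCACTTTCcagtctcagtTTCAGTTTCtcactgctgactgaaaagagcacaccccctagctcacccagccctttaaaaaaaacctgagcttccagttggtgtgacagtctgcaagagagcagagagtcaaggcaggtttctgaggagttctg
Irf1 (chr11:53769764-53770063, plus strand): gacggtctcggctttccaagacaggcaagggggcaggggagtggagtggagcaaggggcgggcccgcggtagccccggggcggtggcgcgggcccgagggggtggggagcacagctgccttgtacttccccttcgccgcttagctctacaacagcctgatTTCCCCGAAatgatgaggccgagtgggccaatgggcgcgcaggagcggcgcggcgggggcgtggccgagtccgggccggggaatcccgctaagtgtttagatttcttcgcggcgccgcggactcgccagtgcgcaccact

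Motifs were searched on both strands as GGANTTTCC and GGAANTTCC for NF-kB (the same bases can match both forms), GAAANNGAA for the ISRE core, TTCNNNGAA for STAT sites and TGANTCA for AP-1. An NF-kB form was in 1.88% of all 27025 promoter windows and in 2.04% of the 11013 windows of genes tested here. Of the 20 genes that rose most, 15 had a window, and 4 of these (26.7%) held an NF-kB form. An ISRE core was in 6 of the 15 (40%), AP-1 letters in 5 (33.3%, against 5.33% of the windows of tested genes) and STAT letters in 2 (13.3%, against 6.78%). The ISRE core was in 7.16% of the windows of tested genes and in 10 of the 18 windows (55.6%) of tested members of the type I interferon-stimulated list, where no window held an NF-kB form. The window of Isg15, a member of the list not measured here, held 1 NF-kB form and 3 ISRE cores. Genes that fell held motifs as well. Of the 12 windows of the 20 largest falls 2 held an ISRE core (16.7%), 1 an NF-kB form (8.33%) and 0 AP-1 or STAT letters. Among 11 windows of B cell markers 3 held an ISRE core (27.3%), 1 an NF-kB form (9.09%), 1 AP-1 letters and 0 STAT letters. These sets are small. In the Cxcl10 window the ISRE core begins 213 bases before the start and the NF-kB match 158 bases before it. Ifit1 has ISRE cores at 109, 103 and 84 bases before the start. A match describes the letters of the window and does not show binding.

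Over the genes tested, saline arrays correlated with each other at 0.9887 to 0.9924 and LPS arrays at 0.9664 to 0.9886, whereas a saline and an LPS array correlated at 0.91 to 0.944. Principal component 1 held 73.2% of the variance and put the 3 saline arrays between -29.5 and -27.6 and the 3 LPS arrays between 23.8 and 34.7. On component 2 (15.9%) LPS replicate 1 stood at 23.5, apart from LPS replicates 2 and 3 at -18.5 and -9.5. As a check of the labelled tissue, surfactant protein C (Sftpc), made by alveolar type 2 cells, read 13.54, 13.23 and 13.41 after saline and 13.09, 13.26 and 13.13 after LPS. Heart muscle and airway genes varied between arrays of the same group, and their values are given where they touch a result.

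Of 13837 genes tested with limma, 2056 (14.9%) were higher and 1096 (7.92%) lower after LPS, with 0.05 as the threshold of the adjusted p. Only genes past it are said to have risen or fallen, differences are LPS minus saline in log2 units, and the error after ± is the standard error (n = 3 and 3). A gene was tested if it was above the 40th percentile of the array on at least 3 of the 6 arrays. Of the genes tested, 80 cleared that filter on the LPS arrays alone, 25 of them in the lists described below, and 70 of the 80 rose, so a rise is built into their selection. Of the genes named below these were Saa3, Cxcl2, Ccl20, AA467197, BC023105, Orm2, Cxcl3, Slc26a4, Il6, Cxcl5, Ido1, Saa2, Cxcl11, Mx1, Csf2, Ccr1, Arg1, Adamts4, Il23a and Il12b, and without a filter the adjusted p of each was 0.0102 or lower (limma). The lists with more than 2 such members were CC chemokines (4 of 15 rises), neutrophil-attracting chemokines (4 of 7), acute-phase proteins (4 of 18) and cytokines (5 of 18). Another 41 tested genes cleared the filter on the saline arrays alone. Of these 33 fell, Ces1f and Snord118 among them, so a fall is built into their selection. A filter on the mean of the 6 arrays instead gave 2075 rises and 1042 falls. Among the genes that rose, 455 did so by 1 log2 unit or more and 15 by 4 or more. The falls were smaller, with 100 genes lower by 1 unit or more and 4 by 2 or more. The split between rises and falls rests on the scaling of the arrays: 65.2% of called genes were higher as deposited, 54.5% after a second quantile normalization of the 6 arrays and 43.9% with each array centred on its median. Of the genes that rose, 1897 were also above all 3 arrays of mice without instillation, and of those that fell, 832 were below them. Between saline and no instillation 37 of 13765 genes were higher with saline (0.269%) and 5 lower (0.0363%), and 1452 had an unadjusted p under 0.05 (limma).

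The acute-phase protein serum amyloid A3 (Saa3) changed most of all genes tested. It read 5.98, 6.05 and 6.09 after saline and 12.84, 12.38 and 12.66 after LPS, a difference of 6.59 ± 0.125. The neutrophil chemokine Cxcl2 read 5.32, 5.81 and 5.37 after saline and 11.87, 11.12 and 11.96 after LPS, a difference of 6.15 ± 0.231. On all 3 saline arrays both were below the filter, so they were tested through the LPS arrays alone; fitted without a filter, limma's adjusted p was 1.76e-07 for Saa3 and 2.71e-06 for Cxcl2. Every LPS array stood more than 5 units above every saline array for both genes, and the mice without instillation read 5.97, 6.37 and 6.32 for Saa3 and 5.53, 5.72 and 5.29 for Cxcl2, at the level of saline. Acod1, which makes the macrophage metabolite itaconate, read 6.53, 6.44 and 6.13 after saline and 12.89, 12.13 and 12.48 after LPS and rose 70.4-fold. The T cell chemokines Cxcl10 (5.81 ± 0.163) and Cxcl9 (5.80 ± 0.139) and the plasma protein Orm1 (5.48 ± 0.182) followed. Next in size were the Ly6 family antigen Ly6i (4.73 ± 0.123), the chemokine Ccl20 (4.68 ± 0.227), interleukin 1 alpha (Il1a, 4.57 ± 0.215), AA467197 (4.54 ± 0.227) and the C-type lectin Clec4e (4.30 ± 0.214). The list of 20 ends with Ccl3, BC023105, Timp1, Ccl2, Ccl7, Orm2, Gm12250, the decoy interleukin 1 receptor Il1r2 and the myeloid receptor Tarm1, whose rises ran from 4.28 ± 0.118 down to 3.67 ± 0.217.

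**Figure D1:**
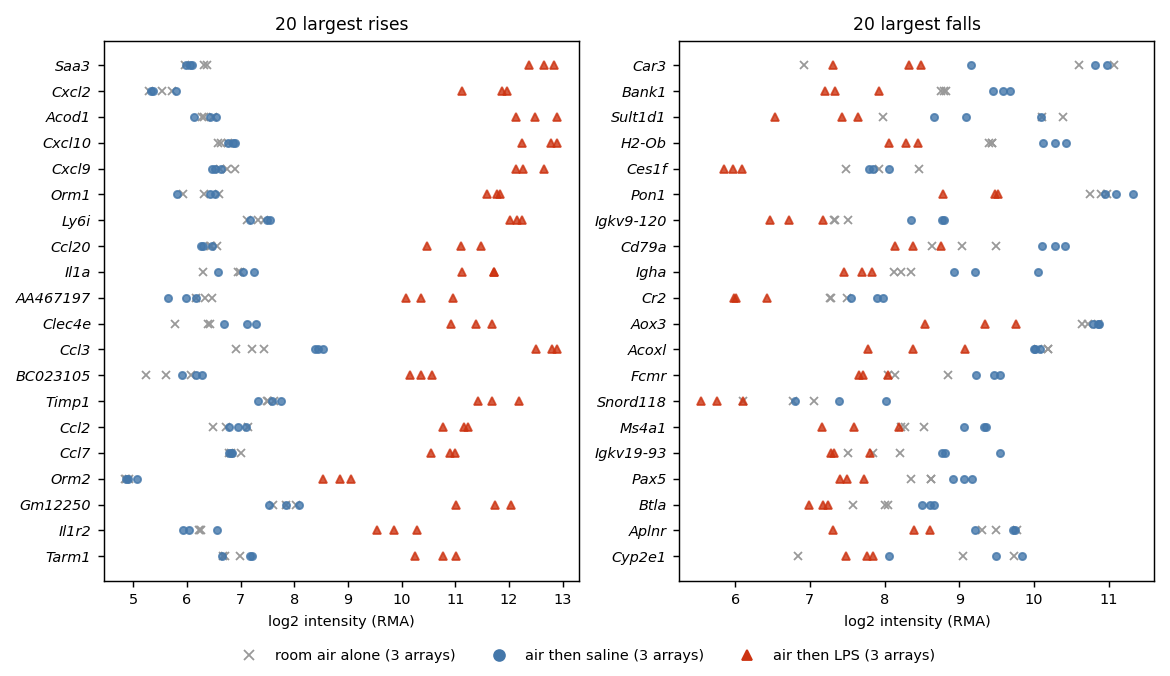
Log2 intensity (x axis) of the 20 genes with the largest rise (left) and the 20 with the largest fall (right), 1 point per array; circles are air then saline, triangles air then LPS and crosses room air alone, 3 arrays each. For the rises the LPS arrays lie far to the right of both other groups (Saa3 at 12.38 to 12.84 against 5.98 to 6.09), while for the B cell genes Bank1 (at 8.75 to 8.82) and H2-Ob the room air arrays lie between both instilled groups.

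The machinery that senses LPS rose with the response. Of 24 genes of LPS sensing and signalling 23 were measured and tested, and 20 rose and none fell, against 14.9% of all genes tested that rose. The LPS co-receptor Cd14 read 7.89, 7.98 and 7.78 after saline and 11.02, 10.61 and 11.04 after LPS, an 8.04-fold rise (adjusted p = 9.27e-06). The receptor Tlr4 moved much less, at 7.86, 8.10 and 8.08 after saline and 8.77, 8.81 and 8.78 after LPS (0.77 ± 0.0939), and its partner Ly96, which encodes MD-2, rose by 0.65 ± 0.129. All 3 LPS arrays were above all saline arrays for Cd14, Tlr4 and Ly96, as they were for 25.1% of all genes tested. Of 3152 called genes 3149 were without overlap, so this separation comes with the call. Tlr2, the receptor of bacterial lipoproteins, rose by 2.32 ± 0.142, and the inflammasome sensor Nlrp3 read 6.59, 6.41 and 6.17 after saline and 9.33, 8.75 and 9.52 after LPS (2.81 ± 0.201). Casp4, the murine caspase-11 that binds LPS inside cells, rose by 1.42 ± 0.142. Among the adaptors and kinases, Myd88 rose by 1.13 ± 0.0975 and the inhibitory kinase Irak3 by 1.52 ± 0.142. Ticam1, the adaptor of the interferon branch, missed the threshold at 0.30 ± 0.0934, adjusted p = 0.054, as did the DNA sensor Aim2 (0.22 ± 0.13, adjusted p = 0.276).

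Among lectin and scavenger receptors of phagocytes 8 of 9 tested genes rose, with none lower and a median difference of 1.76 over the 10 measured, against a median of about 0 over all genes tested. Clec4e, which senses mycobacterial glycolipid and dead cells, read 7.29, 7.13 and 6.69 after saline and 11.68, 10.93 and 11.38 after LPS. The scavenger receptor Msr1 rose by 2.63 ± 0.21, the amplifying receptor Trem1 by 2.45 ± 0.14 and the oxidised-lipoprotein receptor Olr1 by 1.92 ± 0.18. The mannose receptor Mrc1 did not pass (-0.18 ± 0.251, adjusted p = 0.643), and on LPS replicate 1 it read 8.34 against 9.46 and 9.17 on the others.

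NF-kB genes rose in 18 of 20 cases, with a median of 1.23 and none lower. The inhibitors that NF-kB itself induces were prominent: Nfkbia read 10.55, 10.36 and 10.53 after saline and 12.13, 11.86 and 11.91 after LPS (1.49 ± 0.104), Nfkbie rose by 1.86 ± 0.114, and the ubiquitin-editing enzyme Tnfaip3 (A20) read 7.91, 7.94 and 8.06 after saline and 10.50, 10.22 and 10.45 after LPS, a 5.33-fold rise. Tnip3, an A20-binding inhibitor, rose by 3.06 ± 0.196 and the RNase Zc3h12a, which destroys cytokine transcripts, by 1.77 ± 0.114. Of the transcription factor subunits, Nfkb2 rose by 1.25 ± 0.123 and Relb by 1.07 ± 0.101, while Rela changed by only 0.38 ± 0.0949 and Rel did not pass (0.40 ± 0.125, adjusted p = 0.0536). Of 18 tested JAK-STAT genes 10 rose, led by the inhibitors Socs1 (1.96 ± 0.121) and Socs3 (1.95 ± 0.171) and by the interferon signal carrier Stat2 (1.48 ± 0.129). The interleukin 6 effector Stat3 rose by 0.67 ± 0.0771, and Osmr, a receptor of the same cytokine family, read 9.59, 9.61 and 9.75 after saline and 10.75, 10.91 and 10.97 after LPS. Genes of the first minutes of stimulation were mixed: of 18 immediate early genes 7 rose and 1 fell, with Atf3 up by 1.69 ± 0.213 and Myc by 1.34 ± 0.115. Fos (-0.32 ± 0.143, adjusted p = 0.148) and Egr1 (-0.36 ± 0.254, adjusted p = 0.347) did not pass, and Ier2 fell by 0.41 ± 0.0943.

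Of 11 tested genes for neutrophil-attracting chemokines, their receptors and growth factors 7 rose and 1 fell. Cxcl1 read 6.70, 6.87 and 6.75 after saline and 8.83, 7.69 and 8.41 after LPS (1.54 ± 0.25), Cxcl3 rose by 3.60 ± 0.147 and Cxcl5 by 2.95 ± 0.153, and the growth factors Csf2 and Csf1 by 2.22 ± 0.114 and 1.12 ± 0.0991. LPS replicate 2 was the lowest of its group for Cxcl1, Cxcl2 and Cxcl5, but still above every saline array. The gene that fell was the platelet chemokine Ppbp, which read 12.21, 11.75 and 11.59 after saline and 10.42, 10.91 and 10.49 after LPS and fell by 1.25 ± 0.187 (adjusted p = 0.00291). The mice without instillation read 11.03, 10.47 and 10.93, which overlaps the LPS arrays, and the platelet factor Pf4 did not pass (0.14 ± 0.194, adjusted p = 0.641). Cxcr2, the receptor of these chemokines on neutrophils, rose by 1.76 ± 0.226. Csf3, the granulocyte growth factor, was too dim to be tested on these arrays (6.22, 6.04 and 6.07 after saline and 6.94, 6.29 and 6.51 after LPS).

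The CXCR3 ligands that attract T and natural killer cells all rose, with Cxcl11 up by 2.60 ± 0.222 beside Cxcl9 and Cxcl10, and 6 of 11 genes of this list passed. The B cell attractant Cxcl13 read 8.24, 8.42 and 8.80 after saline and 10.89, 11.22 and 11.15 after LPS, a rise of 2.60 ± 0.158. Of 18 tested CC chemokines and receptors 15 rose, with a median of 1.86 over the 21 measured. The monocyte attractant Ccl2 read 7.10, 6.95 and 6.78 after saline and 11.17, 10.78 and 11.23 after LPS, and Ccl7, of the same kind, rose with it (adjusted p = 1.78e-06). Ccl3 read 8.44, 8.39 and 8.53 after saline and 12.89, 12.50 and 12.81 after LPS, a 19.4-fold rise. Its saline level was itself higher than without instillation, where it read 7.44, 6.91 and 7.22. Ccl17 and Ccl22, ligands of CCR4, rose by 2.61 ± 0.236 and 2.13 ± 0.123, and Ccl19, a ligand of CCR7, by 1.86 ± 0.0937. Ccr1 rose by 2.21 ± 0.0996.

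Of 23 tested cytokine genes 18 rose and none fell, with a median of 1.15 over the 26 measured. Tumour necrosis factor (Tnf) read 6.83, 6.62 and 6.54 after saline and 10.44, 9.67 and 10.21 after LPS, a rise of 3.44 ± 0.188 (adjusted p = 2.21e-05). Il1b read 8.96, 8.50 and 8.60 after saline and 11.81, 11.52 and 12.01 after LPS, a rise of 3.09 ± 0.161, and its natural antagonist Il1rn rose by 3.61 ± 0.195. Il6 read 3.87, 3.92 and 3.94 after saline and 6.97, 6.62 and 7.90 after LPS. Its saline values lie near the lower end of the arrays, whose 5th percentiles were 3.5 to 3.63, so the size of its difference of 3.25 is uncertain. Interferon gamma (Ifng) read 6.17, 6.46 and 6.30 after saline and 9.64, 9.01 and 9.53 after LPS, a rise of 3.08 ± 0.168, and the T helper polarising subunits Il12b and Il23a rose by 1.32 ± 0.112 and 1.34 ± 0.178. Il33, an alarmin of the alveolar epithelium, rose by 0.95 ± 0.148 against saline, but mice without instillation read 10.20, 10.01 and 9.86, which overlaps the LPS arrays. Interferon beta (Ifnb1), at 5.42, 5.48 and 5.04 after saline and 5.36, 4.97 and 5.10 after LPS, and Il10, at 4.22, 4.25 and 4.38 after saline and 5.04, 4.59 and 4.44 after LPS, were too dim to be tested, and Il18 did not pass (-0.31 ± 0.137, adjusted p = 0.148).

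All 18 tested acute-phase genes rose, by 0.72 to 6.59, and 5 of the 23 measured were too dim to be tested. Saa3, Saa2, Orm2 and 1 other of the 18 were tested through the LPS arrays alone, and under the filter on the mean 15 were tested and 15 rose. Beside Saa3, the siderophore-binding protein Lcn2 read 10.84, 11.18 and 11.05 after saline and 13.32, 13.33 and 13.50 after LPS (2.36 ± 0.112). The protease inhibitor Timp1 read 7.32, 7.76 and 7.58 after saline and 12.19, 11.42 and 11.68 after LPS, the zinc importer Slc39a14 rose by 2.08 ± 0.138, the iron reductase Steap4 by 2.81 ± 0.101 and the glycoprotein Lrg1 by 2.23 ± 0.0956. Haptoglobin (Hp), which binds free haemoglobin, rose by 0.72 ± 0.122. The metallothioneins Mt1 and Mt2, which bind zinc, rose by 1.31 ± 0.114 and 1.95 ± 0.11. Saa1 read 3.68, 3.28 and 3.29 after saline and 5.16, 5.31 and 5.29 after LPS. Saa4 read 4.73, 4.88 and 4.92 after saline and 6.44, 6.42 and 6.62 after LPS. Neither gene cleared the filter on 3 arrays, although Saa4 was above the 40th percentile on LPS replicates 2 and 3. For both genes the LPS arrays did not overlap the saline arrays. The fibrinogen chains Fga, Fgb and Fgg, which are liver products, read 5.29 to 6.12 on all 6 arrays. Members of near-identical families (Orm1 and Orm2, Saa1 and Saa2) may share probes, so the values of each are uncertain in that respect.

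The interferon programmes rose almost as a whole. All 25 measured type I interferon-stimulated genes rose, by 0.80 to 3.62, and with any single array left out all 25 still passed. Irf7, the amplifier of interferon production, read 8.31, 8.45 and 8.28 after saline and 11.58, 11.21 and 11.08 after LPS (2.94 ± 0.136) and the DNA sensor Ifi205 7.92, 7.99 and 8.01 after saline and 11.66, 11.39 and 11.73 after LPS (3.62 ± 0.107). Ifit1 rose by 2.62 ± 0.104, the nucleic acid sensor Zbp1 by 2.80 ± 0.203, the antiviral enzyme Rsad2 by 2.41 ± 0.226 and the GTPase Mx1 by 2.27 ± 0.177. On LPS replicate 1 the list averaged 1.18 above the mean of the 6 arrays, on replicates 2 and 3 0.809 and 0.708, and on the saline arrays -0.837 to -0.956. Of 15 interferon gamma-induced genes 14 rose, with a median of 1.99. The guanylate-binding protein Gbp5 read 7.55, 7.12 and 7.49 after saline and 11.20, 11.07 and 10.67 after LPS (3.60 ± 0.166), the GTPase Iigp1 rose by 2.94 ± 0.147, the checkpoint ligand Cd274 (PD-L1) by 3.00 ± 0.153 and the tryptophan-degrading enzyme Ido1 by 2.62 ± 0.185. Irf1 read 9.88, 9.66 and 9.92 after saline and 11.76, 11.64 and 11.36 after LPS. The exception was Ciita, the master factor of MHC class II genes (0.62 ± 0.22, adjusted p = 0.0811). These lists overlap in what induces them, since type I and type II interferon share many targets.

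Of 11 measured genes of MHC class I presentation 10 rose, among them the peptide transporter Tap1 (1.60 ± 0.18) and the immunoproteasome subunits Psmb8 (1.29 ± 0.176) and Psmb10 (1.26 ± 0.161); B2m, the light chain of class I molecules, did not pass (0.11 ± 0.0887, adjusted p = 0.428). Of 10 MHC class II genes 3 rose and 3 fell, and 1 rose without saline replicate 2 or 3, after quantile normalization or with all 31 arrays of the series in 1 fit. H2-Aa read 12.05, 11.87 and 11.93 after saline and 11.75, 11.75 and 11.66 after LPS (-0.23 ± 0.0879, adjusted p = 0.101) and Cd74 differed by -0.06 ± 0.0992, adjusted p = 0.677. The falls included H2-Oa (-0.91 ± 0.115) and H2-Ob (-2.01 ± 0.128), subunits of a peptide-loading regulator known mainly from B cells. Of 15 tested dendritic cell genes 5 rose and 1 fell. Costimulatory Cd80 read 6.99, 7.11 and 7.11 after saline and 9.61, 9.04 and 9.58 after LPS (2.33 ± 0.154), Cd86 rose by 1.11 ± 0.0926, Cd40 by 0.93 ± 0.148 and the maturation marker Cd83 by 1.11 ± 0.163, beside the actin bundler Fscn1 (1.60 ± 0.0949). The lineage factor Zbtb46 did not pass (0.25 ± 0.12, adjusted p = 0.186), and the monocyte-derived dendritic cell lectin Cd209a fell by 1.19 ± 0.306.

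Enzymes that make inflammatory mediators rose in 16 of 18 cases. The nitric oxide synthase Nos2 read 6.74, 6.87 and 6.86 after saline and 9.07, 8.14 and 8.60 after LPS (1.78 ± 0.207), the arginase Arg2 rose by 2.85 ± 0.155 and Arg1 by 1.73 ± 0.327, and the oxysterol-making Ch25h read 7.87, 7.63 and 7.98 after saline and 10.85, 10.56 and 10.82 after LPS (2.92 ± 0.125). Ptgs2, the inducible cyclooxygenase, was at 9.28 to 9.63 with saline and rose by only 0.87 ± 0.19, and the prostaglandin E synthase Ptges by 1.22 ± 0.179. The oxidase subunits Ncf1 and Cybb of phagocytes rose by 1.67 ± 0.129 and 0.87 ± 0.142, and mitochondrial Sod2 by 1.26 ± 0.112. The lipoxygenases Alox5 (-0.39 ± 0.139, adjusted p = 0.0848) and Alox15 (0.81 ± 0.534, adjusted p = 0.318) did not pass, and Alox15 varied from 6.46 to 8.60 within the LPS group. Of 19 glycolysis and hypoxia genes 10 rose and 1 fell. Hif1a rose by 0.93 ± 0.143, Pfkfb3, which drives glycolysis, by 0.94 ± 0.102, and the vasodilator peptide Adm by 1.77 ± 0.127. Pdk1 fell by 0.51 ± 0.117 and Vegfa did not pass (-0.19 ± 0.113, adjusted p = 0.258).

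**Figure D2:**
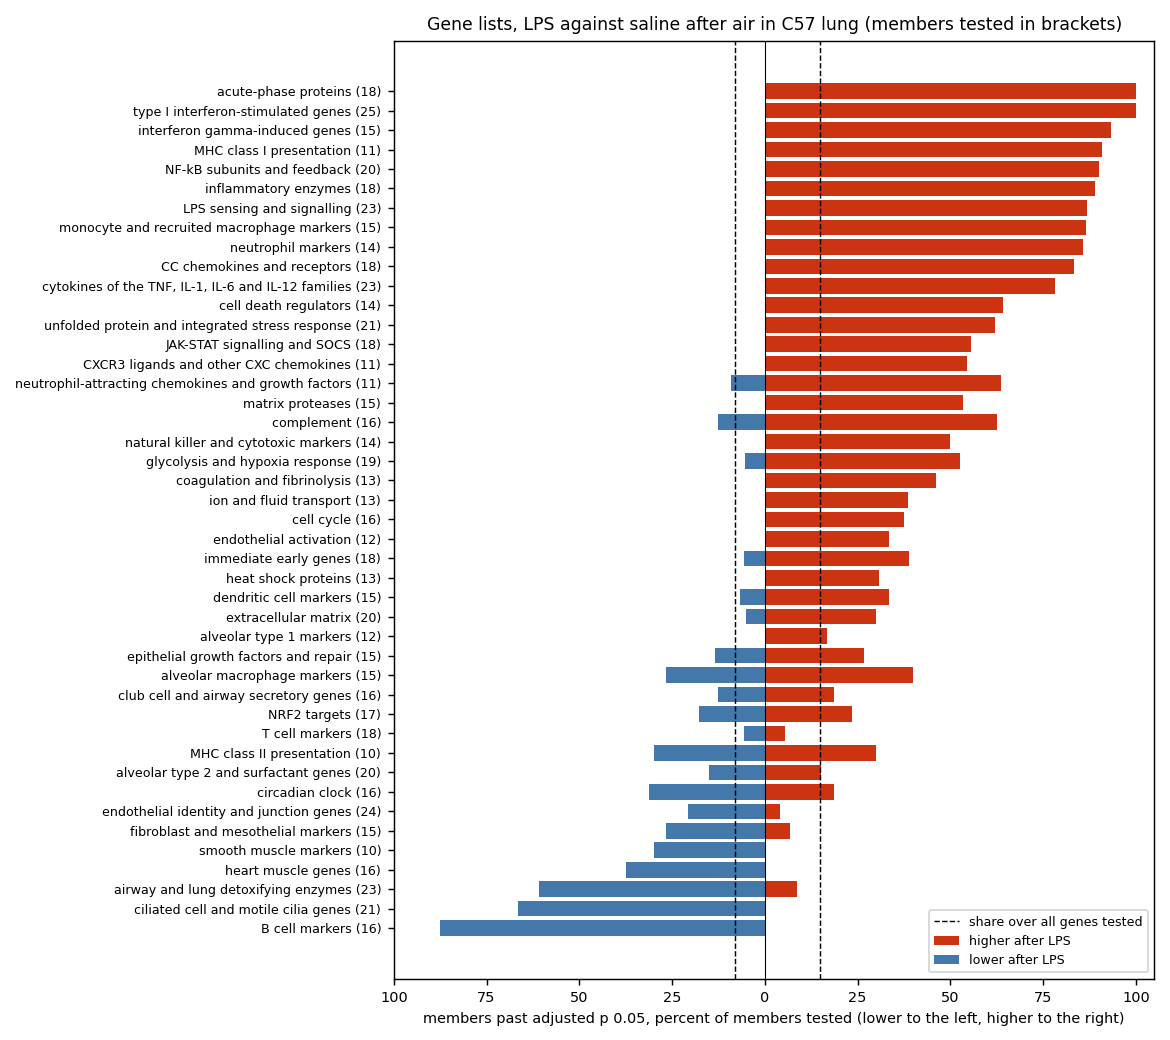
Share of each list's tested members that rose (right, red) or fell (left, blue) after LPS, for lists with at least 10 tested members; the number tested is in brackets and dashed lines mark the shares over all genes tested, 14.9% and 7.92%. Acute-phase and type I interferon lists reach 18 of 18 and 25 of 25 members higher, and B cell markers reach 14 of 16 lower.

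Markers of neutrophils were higher in the LPS lungs: of 20 genes listed 19 were measured and 14 tested, and 12 of these rose. S100a8, a calprotectin subunit of neutrophil cytosol, read 8.70, 7.75 and 7.46 after saline and 9.95, 10.27 and 9.91 after LPS, a rise of 2.07 ± 0.288 (adjusted p = 0.00201). Ly6g, the defining surface antigen of murine neutrophils, rose by 1.55 ± 0.249, the growth factor receptor Csf3r rose by 1.45 ± 0.188 and the granule protease Mmp8 by 1.75 ± 0.282. The saline arrays differed among themselves, saline replicate 1 being the highest for S100a8, S100a9, Mmp8, Csf3r and Cxcr2. Without instillation S100a8 read 7.34, 7.20 and 6.84. The genes of the granule proteins Elane, Mpo, Camp and Ngp read 5.36 to 6.84 on all 6 arrays and were too dim to be tested. Itgam (CD11b), shared by neutrophils, monocytes and macrophages, read 8.51, 8.29 and 8.47 after saline and 10.92, 10.09 and 10.38 after LPS (2.04 ± 0.195), and the interleukin 1 family member Il1f9 (IL-36 gamma), which epithelium and macrophages also make, rose by 3.01 ± 0.212. With all 31 arrays of the series sharing 1 estimate of the spread, 4 of the 14 neutrophil genes passed, and S100a8 did not (adjusted p = 0.0711). Lactoferrin (Ltf), which airway glands also make, varied from 7.93 to 10.67 over the 6 arrays and did not pass. In whole tissue, more or fewer cells of a type cannot be told apart from more or less RNA per cell.

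Of 15 measured markers of monocytes and recruited macrophages 13 rose, with a median of 1.10. The macrophage antigen Adgre1 (F4/80) read 8.59, 8.77 and 8.62 after saline and 10.88, 10.50 and 10.60 after LPS (2.00 ± 0.117), the IgG receptors Fcgr1 and Fcgr4 rose by 1.87 ± 0.184 and 2.47 ± 0.196, and the lysosomal protein Cd68 by 1.29 ± 0.086. Ccr2, the receptor of inflammatory monocytes, changed less, by 0.55 ± 0.161 (adjusted p = 0.0442). With 1 array left out the count stood between 9 (without saline replicate 2 or 3) and 13. Markers of resident alveolar macrophages went both ways, with 6 of 15 tested genes higher and 4 lower; the median of the 15 was 0.0714 as deposited and -0.00754 with each array centred. The sialic acid receptor Siglecf, the lectin that defines these cells in the mouse, read 8.23, 8.29 and 8.32 after saline and 7.74, 7.99 and 7.68 after LPS and fell by 0.47 ± 0.103, and Pparg, their lineage factor, fell by 0.47 ± 0.114. Fabp1 fell by 1.34 ± 0.242. Itgax (CD11c) rose by 0.99 ± 0.0975 and the lysosomal pump subunit Atp6v0d2 by 0.94 ± 0.196. Of the falls 1 passed without saline replicate 2, saline replicate 3 or LPS replicate 3 or with all 31 arrays in 1 fit; none passed against the mice without instillation.

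Of 16 measured complement genes 10 rose and 2 fell. The alternative-pathway factor Cfb read 8.39, 8.36 and 8.56 after saline and 12.05, 11.47 and 11.60 after LPS (3.27 ± 0.152), the C3a receptor C3ar1 rose by 2.18 ± 0.133 and the C5a receptor C5ar1 by 1.46 ± 0.105. The 3 chains of C1q, made by macrophages, rose by 1.09 ± 0.0925, 1.52 ± 0.0821 and 1.14 ± 0.0843. Hc, which encodes C5, read 11.42, 11.50 and 11.50 after saline and 9.46, 10.86 and 10.39 after LPS and fell by 1.24 ± 0.302, with LPS replicate 1 the lowest, and the decay-accelerating inhibitor Cd55 fell by 0.78 ± 0.136.

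B cell genes fell. All 16 measured markers were tested, and 14 fell and none rose, against 7.92% of all genes tested that fell, with a median difference of -1.31. Cd79a, the signalling chain of the B cell receptor, read 10.10, 10.28 and 10.41 after saline and 8.38, 8.14 and 8.76 after LPS (-1.84 ± 0.161, adjusted p = 0.00019). The adaptor Bank1 read 9.45, 9.58 and 9.67 after saline and 7.20, 7.34 and 7.92 after LPS, a fall of 2.08 ± 0.18 or 4.24-fold, and Ms4a1 (CD20) fell by 1.60 ± 0.236. For 14 of the 16 tested markers every LPS array was below every saline array, against 17.5% of all genes tested. Of 3152 called genes 3149 were without overlap, so for called markers this separation comes with the call and adds no support. The lineage factor Pax5 fell by 1.51 ± 0.114, the complement receptor Cr2 by 1.67 ± 0.158 and the follicle-homing receptor Cxcr5 by 1.31 ± 0.185. Outside the list the largest falls held more genes of this lineage, namely the immunoglobulin genes Igha (-1.73 ± 0.264), Igkv19-93 (-1.57 ± 0.228) and another kappa variable gene (-1.85 ± 0.194), the IgM receptor Fcmr (-1.61 ± 0.135) and the inhibitory receptor Btla (-1.45 ± 0.0999). Ighm (-0.59 ± 0.264, adjusted p = 0.153) and the IgE receptor Fcer2a (0.13 ± 0.178, adjusted p = 0.651) did not pass.

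The size of this fall depended on the reference. Mice without instillation read 8.82, 8.75 and 8.80 for Bank1, between both instilled groups, and 9.49, 8.63 and 9.04 for Cd79a, below saline and overlapping the LPS arrays. Relative to the mean of the 6 arrays the list averaged 0.439, 0.644 and 0.692 on the saline arrays, -0.69, -0.713 and -0.373 on the LPS arrays, and 0.0533, -0.127 and -0.0216 without instillation. Measured against the latter, 7 of the 16 markers were lower and 1 higher, with a median of -0.66. For Bank1 the difference was -1.31 ± 0.179 (adjusted p = 0.00187), but Cd79a (-0.63 ± 0.232, adjusted p = 0.0983) and Ms4a1 (-0.69 ± 0.237, adjusted p = 0.0791) did not pass. Between saline and no instillation Bank1 (0.78 ± 0.0871) and H2-Ob (0.86 ± 0.0957) were among the 37 genes higher with saline. So were Ms4a1 (0.90 ± 0.118) and the other kappa variable gene described above (1.25 ± 0.132). Against the mice without instillation Igha (-0.57 ± 0.128, limma adjusted p = 0.0192) and Btla (-0.74 ± 0.147, adjusted p = 0.0115) passed as lower. Igkv19-93 (-0.39 ± 0.202, adjusted p = 0.217) and Fcmr (-0.54 ± 0.217, adjusted p = 0.121) did not. With 1 array left out, 13 to 15 B cell markers fell.

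Most T cell genes did not pass, which also held for most genes tested (14.9% rose and 7.92% fell). Of 18 tested markers 1 rose and 1 fell, with a median of -0.06 over the 19 measured. The receptor chain Cd3e read 8.86, 8.68 and 8.59 after saline and 8.50, 8.80 and 8.63 after LPS (-0.07 ± 0.112, adjusted p = 0.702) and Cd4 7.26, 7.41 and 7.37 after saline and 7.28, 7.30 and 7.57 after LPS (0.04 ± 0.106, adjusted p = 0.814). Il2ra, the activation-induced interleukin 2 receptor, read 6.66, 6.77 and 6.69 after saline and 7.72, 8.13 and 8.26 after LPS and rose by 1.33 ± 0.139, while Lef1, a factor of resting T cells, fell by 0.56 ± 0.103. Of 14 tested natural killer and cytotoxic genes 7 rose, and 3 with all 31 arrays in 1 fit. Granzyme B (Gzmb) read 8.30, 8.29 and 8.48 after saline and 9.54, 9.93 and 9.26 after LPS (1.22 ± 0.163), the chemokine Xcl1 rose by 1.65 ± 0.167 and the receptor chain Il2rb by 0.95 ± 0.106. Gzmb read 7.49, 7.22 and 7.43 without instillation, below the saline arrays. The lineage receptor Ncr1 rose by 0.63 ± 0.129, whereas the lineage factor Eomes did not pass (0.12 ± 0.123, adjusted p = 0.511).

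**Figure D3:**
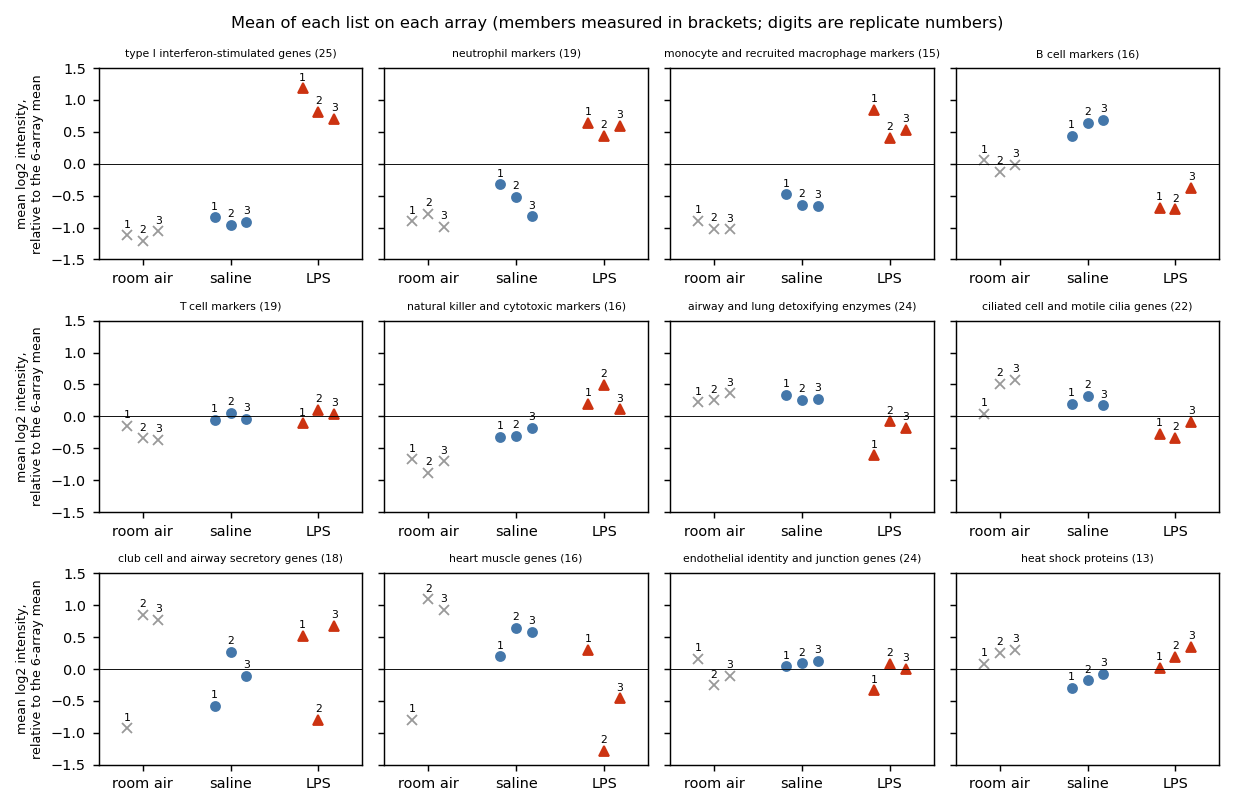
Mean log2 intensity of 12 lists on each array, relative to the mean of the 6 instilled arrays (y axis), for room air alone (crosses), air then saline (circles) and air then LPS (triangles); digits are replicate numbers and the number of members measured is in brackets. Interferon-stimulated genes separate LPS (0.708 to 1.18) from both other groups, B cell markers are lowest with LPS and highest with saline, and airway secretory and heart muscle genes are low together on room air replicate 1 and LPS replicate 2.

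Of 12 tested genes of endothelial activation 4 rose, among them adhesion molecules displayed to leukocytes. E-selectin (Sele) read 6.68, 6.09 and 6.63 after saline and 8.32, 8.11 and 8.44 after LPS (1.82 ± 0.168), Icam1 rose by 1.11 ± 0.102 and Vcam1 by 1.00 ± 0.0802. Of 24 endothelial identity and junction genes 1 rose and 5 fell, with a median of -0.10, and 1 rose and 7 fell with each array centred. Relative to the mean of the 6 arrays this list averaged 0.0448, 0.0871 and 0.126 on the saline arrays. On the LPS arrays it averaged -0.336, 0.0786 and -0.000724, lowest on LPS replicate 1. The apelin receptor Aplnr read 9.20, 9.75 and 9.72 after saline and 7.31, 8.40 and 8.61 after LPS and fell by 1.45 ± 0.322, the VEGF receptor Kdr by 0.64 ± 0.118 and the angiopoietin co-receptor Tie1 by 0.60 ± 0.132. Cdh5 (VE-cadherin), which holds endothelial junctions together, read 12.56, 12.55 and 12.62 after saline and 12.35, 12.53 and 12.49 after LPS (-0.12 ± 0.0862, adjusted p = 0.339). Without saline replicate 3, 1 of the 24 passed as lower, and without saline replicate 1 or 2, with all 31 arrays in 1 fit or against the mice without instillation 2 did. Of 13 tested coagulation and fibrinolysis genes 6 rose. Coagulation factor X (F10) read 7.73, 7.70 and 7.44 after saline and 10.60, 9.89 and 10.08 after LPS (2.57 ± 0.181), the urokinase receptor Plaur rose by 1.32 ± 0.124, the protein C receptor Procr by 1.15 ± 0.0812 and tissue factor (F3) by 0.54 ± 0.123.

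Most alveolar epithelial genes did not pass, as was the case for most genes tested, of which 14.9% rose and 7.92% fell. Of 20 type 2 and surfactant genes 3 rose, 3 fell and 14 did not pass, with a median of -0.11. The collectin Sftpd read 11.81, 11.69 and 11.80 after saline and 12.44, 12.45 and 12.55 after LPS and rose by 0.71 ± 0.0836. Sftpc differed by -0.23 ± 0.105, adjusted p = 0.159 and Sftpb by -0.25 ± 0.107, adjusted p = 0.143. The transcription factors Nkx2-1 and Cebpa fell by 0.38 ± 0.108 and 0.68 ± 0.174, and neither these nor the fall of Lpcat1 passed without any one of the saline arrays or LPS replicate 3. Centring each array on its median gave 2 rises and 6 falls in this list, the mice without instillation as reference gave 1 and 7, and a fit without a filter 1 and 1. Without LPS replicate 1, 5 genes of the list rose, and without LPS replicate 2, 6 fell. Of 12 type 1 genes Pdpn (0.42 ± 0.12) and Krt7 (0.39 ± 0.0879) rose and the other 10, with Ager at 0.02 ± 0.104, adjusted p = 0.889, did not pass. Among 13 ion and fluid transport genes 5 rose. The anion exchanger pendrin (Slc26a4) read 6.05, 6.16 and 6.24 after saline and 9.56, 9.06 and 9.63 after LPS, a difference of 3.27 ± 0.153, and mice without instillation read 6.69, 7.03 and 6.84. Its saline values were below the filter, so it was tested through the LPS arrays alone; without a filter limma's adjusted p was 9.36e-06. The sodium channel subunits Scnn1a and Scnn1g rose by 0.40 ± 0.0907 and 0.40 ± 0.0975, and the chloride channel Cftr by 0.83 ± 0.143. The count of 5 was 2 without saline replicate 1 or LPS replicate 3 or with all 31 arrays in 1 fit, and 3 without saline replicate 2 or 3 or against the mice without instillation.

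Many detoxifying enzymes of the airways and alveoli fell. Of 23 tested 14 fell and 2 rose, with a median of -0.55 over the 24 measured. Pon1, a lactonase, read 11.32, 11.09 and 10.95 after saline and 8.78, 9.51 and 9.47 after LPS (-1.86 ± 0.2, adjusted p = 0.000521), and the carboxylesterase Ces1f read 7.84, 8.06 and 7.80 after saline and 5.84, 6.09 and 5.97 after LPS (-1.93 ± 0.108). The aldehyde oxidase Aox3 read 10.85, 10.87 and 10.79 after saline and 8.54, 9.76 and 9.35 after LPS and fell by 1.62 ± 0.265. For these 3 genes the mice without instillation, with Aox3 at 10.64, 10.72 and 10.86, lay above all LPS arrays, and LPS replicate 1 was the lowest array. Ces1f was below the filter on the LPS arrays, so it was tested through the saline arrays alone. The club cell cytochrome Cyp2f2 fell by 0.55 ± 0.123, Cyp2s1 by 0.86 ± 0.127 and epoxide hydrolase Ephx1 by 1.07 ± 0.294. Akr1c14, an aldo-keto reductase, went the other way at 9.73, 9.72 and 9.72 after saline and 11.29, 11.47 and 11.03 after LPS (1.54 ± 0.117), and so did Cyp1b1 (0.55 ± 0.151). The count of falls was 7 without saline replicate 1 or 3 and 8 without replicate 2, and 11 against the mice without instillation. Of 17 NRF2 targets 4 rose and 3 fell: the cystine transporter Slc7a11 read 7.46, 7.34 and 7.14 after saline and 11.28, 10.18 and 11.11 after LPS (3.54 ± 0.262) and heme oxygenase Hmox1 rose by 1.52 ± 0.118, but Nqo1 read 7.41, 7.38 and 7.38 after saline and 6.63, 6.58 and 6.69 after LPS and fell by 0.76 ± 0.0791. The 4 rises became 2 without any one of the saline arrays or LPS replicate 3 or with each array centred, and 7 without LPS replicate 2.

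Of 16 tested airway secretory genes 3 rose and 2 fell, not far from the shares over all genes tested (14.9% and 7.92%). The immunoglobulin transporter Pigr read 8.96, 9.28 and 8.79 after saline and 11.40, 10.78 and 11.18 after LPS (2.11 ± 0.181) and the tethered mucin Muc4 rose by 1.40 ± 0.186, while the secretoglobin Scgb3a2 read 9.32, 9.41 and 9.23 after saline and 7.70, 7.93 and 8.46 after LPS and fell by 1.29 ± 0.181. The club cell marker Scgb1a1 did not pass (-0.18 ± 0.126, adjusted p = 0.355). Other genes of this list varied by array more than by group. Bpifa1, a secretory protein of upper airways, read 10.27, 13.15 and 11.98 after saline and 12.08, 6.25 and 12.01 after LPS, and Reg3g 7.53, 11.01 and 10.15 after saline and 12.11, 7.99 and 12.12 after LPS. Both were low on saline replicate 1 and LPS replicate 2, where the list averaged -0.576 and -0.8 against -0.103 to 0.681 on the other instilled arrays. Without LPS replicate 2, 6 members of the list rose in place of 3. Cilia genes fell in 14 of 21 tested cases, with a median of -0.46. The axonemal protein Hydin read 9.21, 9.39 and 9.24 after saline and 8.47, 8.34 and 8.54 after LPS (-0.83 ± 0.0947), the dynein Dnah5 fell by 0.67 ± 0.142 and the radial spoke gene Rsph4a by 0.72 ± 0.148, whereas their master factor Foxj1 did not pass (-0.15 ± 0.119, adjusted p = 0.402). The count was 3 without saline replicate 2, 9 to 15 without any other array and 12 against the mice without instillation. With all 31 arrays in 1 fit none of the 21 passed. LPS replicate 2, low in secretory genes, averaged -0.333 for the cilia list, and LPS replicates 1 and 3 averaged -0.271 and -0.0849; the part of tissue sampling in these falls was not tested.

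**Figure D4:**
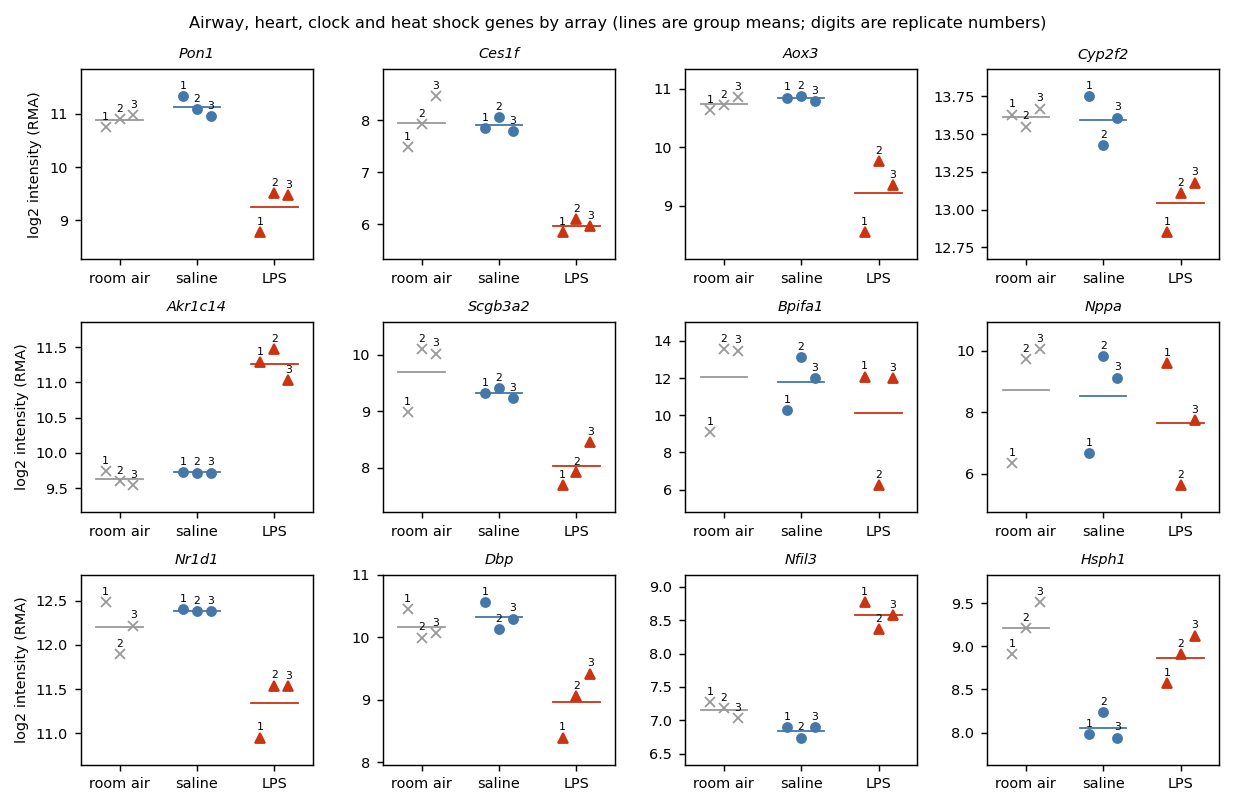
Log2 intensity (y axis, own scale per gene) of 12 genes on each array of room air alone (crosses), air then saline (circles) and air then LPS (triangles), with group means as lines and replicate numbers as digits. Pon1, Ces1f, Aox3 and Nr1d1 are lower on all 3 LPS arrays than on all arrays of both other groups, Bpifa1 and Nppa vary by array within groups, and Hsph1 is low with saline (7.94 to 8.24).

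Among stromal lists, 1 of 15 fibroblast and mesothelial genes rose and 4 fell, and 3 of 10 smooth muscle genes fell. Relative to the mean of the 6 arrays the first list averaged 0.114, 0.148 and 0.199 on the saline arrays. On the LPS arrays it averaged -0.409, 0.0549 and -0.107, lowest on LPS replicate 1. No fall of the first list passed without saline replicate 1 or 3, 1 passed without LPS replicate 3, and 2 without saline replicate 2, without a filter or against the mice without instillation. With any saline array left out 1 or 2 of the smooth muscle falls passed, and with arrays centred or quantile normalized 5 did. With all 31 arrays in 1 fit 1 gene of each list fell. The growth factor Wnt2 fell by 0.74 ± 0.163, and smooth muscle myosin Myh11 read 10.13, 10.43 and 10.28 after saline and 9.76, 9.64 and 9.86 after LPS (-0.53 ± 0.106). Of 20 matrix genes 6 rose and 1 fell. The collagen-crosslinking enzyme Lox read 8.61, 9.07 and 8.80 after saline and 10.49, 10.90 and 10.50 after LPS (1.80 ± 0.155), tenascin C (Tnc) rose by 1.26 ± 0.311 and the basement membrane collagen Col4a2 by 0.77 ± 0.105. The fibrillar collagen Col3a1 did not pass (0.45 ± 0.141, adjusted p = 0.0535). Of 15 tested proteases 8 rose (5 with all 31 arrays in 1 fit), with Adamts4 up by 1.71 ± 0.195, Mmp19 by 1.45 ± 0.096 and Mmp3 by 1.37 ± 0.131. Of 15 tested growth factor and repair genes 4 rose and 2 fell, and Inhba, a subunit of activin A, read 7.10, 6.99 and 6.98 after saline and 9.48, 8.61 and 9.45 after LPS (2.16 ± 0.218). The 4 rises became 1 without saline replicate 1 and 2 without saline replicate 2, saline replicate 3, LPS replicate 3 or a filter, or with all 31 arrays in 1 fit.

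Stress genes of the endoplasmic reticulum rose together: 13 of 21 passed and none fell, with a median of 0.47. The chaperone Hspa5 (BiP) read 11.29, 11.27 and 11.29 after saline and 12.24, 12.12 and 12.28 after LPS (0.93 ± 0.0841), its cofactor Sdf2l1 rose by 1.59 ± 0.125 and Hyou1 by 0.84 ± 0.0821. Ddit3 (CHOP) did not pass (0.29 ± 0.129, adjusted p = 0.15). Heat shock genes rose in 4 of 13 cases, and here the reference was at issue. Hsph1 read 7.98, 8.24 and 7.94 after saline and 8.57, 8.91 and 9.12 after LPS, a rise of 0.81 ± 0.152, but 8.91, 9.21 and 9.52 without instillation, which lies above saline and overlaps the LPS arrays. Against the mice without instillation no heat shock gene rose and 1 fell. The count of rises was 8 without LPS replicate 1 and 1 with all 31 arrays in 1 fit.

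Of 16 measured clock genes 3 rose and 5 fell, against 14.9% and 7.92% of all genes tested. The repressor Nr1d1 read 12.41, 12.38 and 12.38 after saline and 10.95, 11.54 and 11.53 after LPS, a fall of 1.05 ± 0.158, and the output factor Dbp read 10.57, 10.13 and 10.30 after saline and 8.39, 9.06 and 9.42 after LPS (-1.37 ± 0.244). Nfil3, which competes with DBP for its sites and is also a cytokine-induced gene, rose by 1.72 ± 0.12, and Cry1 by 0.79 ± 0.0901. The core activators Clock (0.18 ± 0.141, adjusted p = 0.405) and Arntl (0.44 ± 0.164, adjusted p = 0.0906) did not pass. With any saline array left out 2 of the 5 falls passed, and with all 31 arrays in 1 fit 1 did. The time of day of dissection is not given in the sources used here.

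Cell cycle genes rose in 6 of 16 cases, by at most 0.63 for the proliferation marker Mki67, and the count was 3 without saline replicate 1, saline replicate 3 or LPS replicate 3 and 0 of 16 with all 31 arrays in 1 fit. Of 14 cell death regulators 9 rose and none fell. The necroptosis effector Mlkl read 7.34, 7.43 and 7.22 after saline and 9.54, 8.94 and 8.90 after LPS (1.79 ± 0.17) and its kinase Ripk3 rose by 0.87 ± 0.115, the pyroptosis genes Casp1 and Gsdmd by 0.90 ± 0.101 and 0.63 ± 0.116, and the death receptor Fas by 0.79 ± 0.101. Cflar and Bcl2l1, which protect from apoptosis, rose by 0.71 ± 0.104 and 0.64 ± 0.136. Without saline replicate 2, 6 of the 9 rises passed.

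Genes of tissues next to the lung were on the arrays as well. Heart muscle genes, found in the sleeves of pulmonary veins and in attached atrium, fell in 6 of 16 cases with a median of -0.99, but followed single arrays. The list averaged 0.2, 0.65 and 0.585 on the saline arrays, 0.306, -1.28 and -0.46 on the LPS arrays and -0.796, 1.09 and 0.926 without instillation. The atrial peptide Nppa read 6.68, 9.82 and 9.13 after saline and 9.59, 5.63 and 7.75 after LPS and 6.33, 9.74 and 10.06 without instillation. Without LPS replicate 1 14 members of the list fell, and without LPS replicate 3 or any saline array 2 did. Without LPS replicate 2, without a filter or with arrays centred 3 fell, against the mice without instillation 1, and with all 31 arrays in 1 fit none. Car3, which had the largest fall of the genes past the threshold at 2.28 ± 0.495 and is abundant in fat and muscle, read 9.16, 10.82 and 10.98 after saline and 8.32, 7.30 and 8.49 after LPS and 6.92, 11.07 and 10.60 without instillation, which overlaps the LPS arrays. Of 4 tested adipocyte genes 1 fell, and the fat markers Plin1 and Adipoq read 6.97, 7.68 and 7.71 after saline and 7.31, 6.61 and 6.87 after LPS and 6.11, 7.57 and 7.58 after saline and 6.23, 5.66 and 5.90 after LPS. Cyp2e1 (-1.43 ± 0.402) and Sult1d1 (-2.08 ± 0.392), also among the 20 largest falls, were likewise lowest of their groups on saline replicate 1 and room air replicate 1. Among the LPS arrays Sult1d1 (7.427, 6.537 and 7.637) was lowest on replicate 2, whereas Cyp2e1 (7.488, 7.838 and 7.765) was highest there. The part of attached tissue in these falls was not tested. The 20 largest falls also held Acoxl (-1.62 ± 0.277) and the small nucleolar RNA gene Snord118 (-1.60 ± 0.285). Of mast cell, erythroid and thymocyte markers 2 each were bright enough to be tested, and none passed.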

How the data were processed

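Total RNA of whole lung had been hybridised as biotin-labelled cRNA to Affymetrix arrays, per the labels' protocols. The deposited values are log2 intensities per probe set, made by the authors with RMA, per the submitters' processing notes; its version and settings are not given in the sources used here. Probe sets with 1 gene symbol (21789 of 35556) were used, and a gene with several took the one with the highest mean over the 6 arrays. Genes above the array's 40th percentile on at least 3 of the 6 arrays were tested with limma 3.58.1 in R 4.3.3 (lmFit and eBayes, 2 group means, Benjamini-Hochberg adjustment over 13837 genes, threshold 0.05), after a test of the script on simulated data. Array precision is limited by the number of arrays, 3 a group. Gene lists (49, with 784 of 852 genes measured) and members were chosen with earlier results of these data known. The text names the 20 largest rises and falls among genes past the threshold whose groups do not overlap, and members of the lists. A list's median covers all its measured members. Counts of every list are to be read beside the 14.9% of all genes tested that rose and the 7.92% that fell. Replicate numbers were not used to pair the arrays in the main fit. Correlations of deviations from group means were 0.39, -0.122 and 0.306 for equal numbers and -0.503 to 0.275 for unequal ones. With 3 arrays a group these values do not settle whether the numbers mark pairs. Promoters came from RefSeq, GRCm38.p6. Alternatives concerned the filter, moderation, scaling, block, other arrays, reference group, probe sets, a minimum size and single arrays.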

Additional observations from a re-analysis of the deposited data

Results flagged for a closer look

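Probe sets without a single gene symbol were outside the comparison and held signal too. Of 5517 tested probe sets that the annotation does not name, 348 were higher and 243 lower after LPS (limma adjusted p under 0.05), with differences of up to 3.34 and down to -2.26 log2 units. Of 920 tested probe sets with several symbols, 74 were higher and 74 lower, between -2.60 and 3.02. They were fitted together with the 15284 tested probe sets of 1 symbol, of which 1785 were higher and 940 lower.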

How the results depend on the processing

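Counts of genes higher and lower after LPS, 2056 and 1096, moved most with the test and the arrays used. Against a minimum difference of 1 log2 unit (treat) 170 were higher and 4 lower. With arrays centred on their medians 1920 were lower, and with all 31 arrays in 1 fit 652. With 1 array left out, 1230 to 2827 were higher and 427 to 1716 lower; omission of saline replicate 1, 2 or 3 or of LPS replicate 3 gave the low counts (542, 427, 480 and 703 lower), and omission of LPS replicate 1 the high ones. With the replicate block 2283 were higher and 1445 lower, of which 2009 and 1055 were among those called without it. Without a filter 1660 and 798 passed. Of 216 named genes past the threshold, 155 passed in the same direction under every alternative other than treat that tested them (201 were tested under the filter on the mean). Without at least 1 array 30 missed it, with highest adjusted p of 0.0527 to 0.152: Aplnr, Bcl2l1, Car3, Ccr2, Cd209a, Cebpa, Cyp1b1, Cyp2e1, Cyp2f2, Dnah5, Ephx1, F3, Hc, Ier2, Krt7, Lpcat1, Ncr1, Nkx2-1, Pdk1, Pdpn, Pparg, Ptgs2, Rela, Rsph4a, Scnn1a, Scnn1g, Siglecf, Tie1, Tnc and Wnt2. Against mice without instillation 26 missed it, Cd79a, Ms4a1, Ppbp and Il33 among them, and Hsph1 turned to -0.34. With all 31 arrays 41 missed it, among them S100a8, Ly6g, Csf3r, Nr1d1 and Dbp. The other changes of sign were of genes that had not passed: against mice without instillation Cd3e (0.40), Cdh5 (0.13), Ighm (0.0076) and Ltf (-0.16); with centred arrays Ager (-0.055) and Cd4 (-0.039); after quantile normalization Ager (-0.028). With 1 array left out, Ager ranged from -0.043 to 0.097, Cd3e from -0.14 to 0.0060, Cd4 from -0.053 to 0.094, Fcer2a from -0.041 to 0.23, Bpifa1 from -2.665 to 0.25, Mrc1 from -0.42 to 0.14 and Nppa from -1.85 to 0.13. The cause of these changes was not tested. For probe sets near the lower end of the arrays (Il6, Saa1) the size of a difference is uncertain.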
